A study of Rattus norvegicus with 2 samples.

Results

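Voltage-gated calcium channels, voltage-gated sodium channels and HCN channels (hyperpolarization-activated, cyclic nucleotide-gated cation channels) were followed through a comparison of the hypothalamic paraventricular nucleus of adult rats. The members were all probes whose gene name in the array files begins with Cacn, with Scn and a digit, or with Hcn and a digit, leaving out Scn7a, which is not gated by voltage in the usual way. This gave 54 of the 30367 non-control probes, for 43 genes: 26 calcium channel genes, 13 sodium channel genes and 4 HCN genes. The first array held RNA from 12-week-old male Sprague Dawley offspring of mothers that received 200 µg/kg of the synthetic glucocorticoid dexamethasone during the third trimester of pregnancy (dexamethasone array). The second array held RNA of male offspring of the same strain and age from mothers given vehicle (control array). There was 1 array per group, and the labels do not say if its RNA came from 1 animal or several. All differences below therefore lie between 2 arrays, with no replicate check and no p-value.

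These channels set how neurons fire. Pore-forming alpha subunits open with depolarization and pass calcium or sodium, and auxiliary subunits (alpha2delta, beta and gamma for calcium channels, beta for sodium channels) set their surface number and their kinetics. HCN channels open with hyperpolarization instead and carry the pacemaker current. Members of the gamma family also serve as TARPs, which are auxiliary subunits of AMPA-type glutamate receptors and not of calcium channels. In the paraventricular nucleus, low-voltage-activated calcium current and sodium current shape the firing of neurosecretory and preautonomic neurons.

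Each member was read by 1 or 2 DNA probes of 60 bases. The first 30 bases of 10 probes are given 5′ to 3′ as the array files list them, with positions in the rn4 rat assembly from the files. These are probes of 6 genes that differed at least 2-fold, the other probes of Cacna1e and Cacna1g, and both probes of Cacna1i. Capitals mark bases that both Cacna1i probes hold, which overlap over 43 bases of the transcript. The Cacng8 probe spans more genomic bases than its own length, so it crosses a splice junction.
Cacna1h, chr10:14621473-14621532, minus strand: gctcaacattcatttgacatccatttgctt
Cacna1g, brighter probe, chr10:83043933-83043992, minus strand: aagaaagacacgctgagtctctctggtttg
Cacna1g, dimmer probe, chr10:83044389-83044448, minus strand: aaggaccctccagagaccagaagcagctta
Cacna1i, brighter probe, chr7:118681461-118681520, plus strand: gctacccgctatcctccCGCCTGCCCCATC
Cacna1i, dimmer probe, chr7:118681478-118681537, plus strand: CGCCTGCCCCATCTTGCCTTCTTTTACCTC
Cacna1e, brighter probe, chr13:69372626-69372685, minus strand: aggttagtgaattaaaaagtgtgcagtcct
Cacna1e, dimmer probe, chr13:69367030-69367089, minus strand: aaagaaaatacaggaatgtgggggtttatt
Cacng8, chr1:64069079-64071811, minus strand: acaaatccaaaaggaacatcatcctgggcg
Scn3b, chr8:43253930-43253989, plus strand: gactcaacgctctctgtgtcaagtactagg
Scn4b, chr8:48106487-48106546, plus strand: tcctctggcttggataacagtacccatagt

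The channel genes are relatives of similar sequence, so the probes were compared with each other. Over their whole 60 bases, probes of different channel genes shared runs of at most 10 identical bases. This compares probes with probes and not with whole transcripts. How far a probe pairs with transcripts of other genes, inside or outside the family, was not analysed here.

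Signals are the scanner software's processed intensity in arbitrary units, and differences are dexamethasone minus control in log2 after each array's 75th percentile was set equal (1480 and 1404 as signal). Each gene is represented by the brightest of its probes that passed the software's test against background on both arrays. The arrays had 78.2% and 79.5% of probes well above background, dexamethasone array first. Where a probe was spotted repeatedly, the spot-to-spot SD of the difference had a median of 0.035 over 941 probes with mean signals of 512 or more, 0.066 over 264 probes from 64 up to that level and 0.21 over 110 probes below 64. This SD comes from repeated spots alone and does not include the spread between animals. The scanner software also lists an error for each spot, as a share of its signal. Over the channel members this software error had a median of 10.02%, and it reached 19.32% among their measured probes. It does not include the spread between animals either. Both arrays lay on 1 slide at different positions, so position and treatment cannot be told apart.

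Of the 43 channel genes, 40 were measured on both arrays. Of these, 5 genes (12.5%) had a signal 2-fold or more above control in the dexamethasone array, where 3.37% of all 14176 measured genes were. Among them were Cacng8, Cacna1h, Scn3b and Scn4b. Another 2 (5%), Cacna1e and Cacna1g, were at least 2-fold lower, where 2.38% of all genes were. The other 33 lay within 2-fold. The family as a whole did not lean upward: 18 genes were above 0 and 22 below, with a median of -0.09, against 0.0087 over all measured genes. The size of the differences was wider than in the whole array, with a median absolute difference of 0.39 against 0.20 over all genes. These shares describe 1 pair of arrays and were not tested. Here and below, more cells of a type and more RNA per cell cannot be told apart, since the RNA is of whole tissue.

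**Figure D1:**
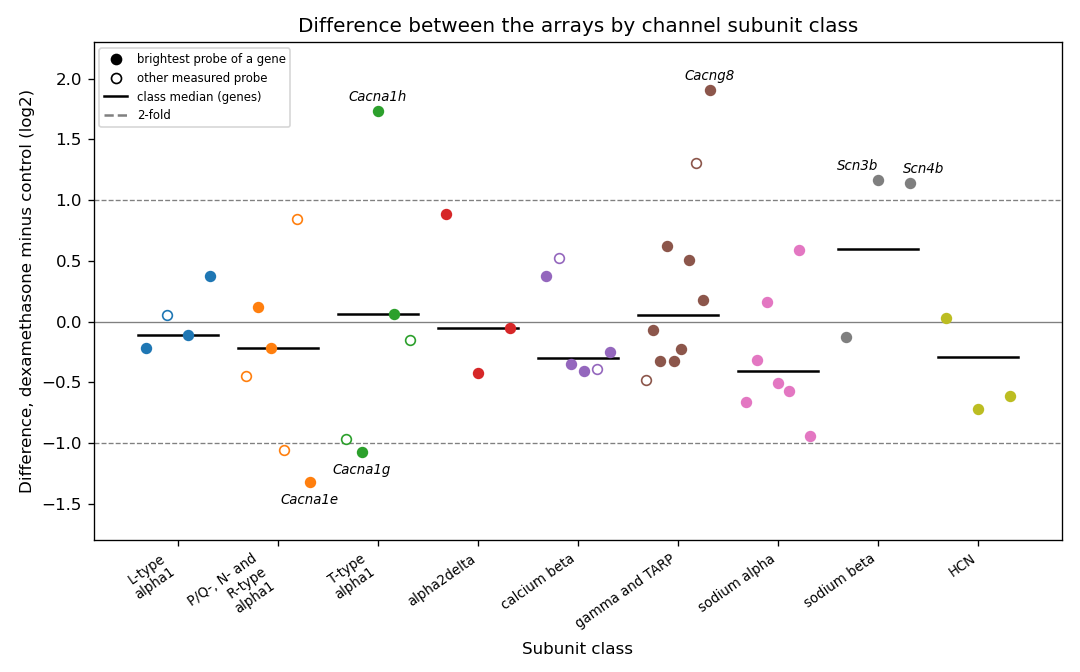
Difference between the arrays (dexamethasone minus control, log2, y axis) for measured probes of the channel genes, grouped by subunit class (x axis). Filled points are the brightest probe of a gene, open points its other measured probe, black bars the class median over all measured genes of the class, a few of which are not drawn, and dashed lines 2-fold. Sodium beta subunits have the highest class median (0.60), and members of the T-type class lie on both sides of 0.

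T-type channels, which open near rest and drive rebound bursts, differed among themselves. Cacna1h, a T-type alpha subunit, had a signal of 1091 in the dexamethasone array and 310.8 in the control array, 3.33-fold higher (log2 difference 1.74). Cacna1g, the T-type subunit of thalamic relay neurons, had signals of 1194 in the dexamethasone array and 2392 in the control array, 2.11-fold lower (-1.08). Its dimmer probe, which starts 456 bases away in rn4, was at -0.97, with signals of 266.4 in the dexamethasone array and 495.5 in the control array. Cacna1i, the T-type subunit of the thalamic reticular nucleus, was close to equality at 0.06, with signals of 3464 in the dexamethasone array and 3157 in the control array. Its overlapping probe, which reads nearly the same stretch, was at -0.15 with signals of 1696 in the dexamethasone array and 1790 in the control array. Both Cacna1i differences were small and had opposite signs.

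High-voltage-activated alpha subunits mostly lay close to equality. Cacna1b, the N-type subunit of presynaptic terminals, had 10 spots, averaging 2693 ± 86.2 in the dexamethasone array and 2972 ± 87.7 in the control array (SD over 10 spots). Its difference was -0.22, and single spot pairs ran between -0.27 and -0.15. Cacna1c, the main L-type subunit of brain and heart, had 707 ± 14.7 in the dexamethasone array and 782 ± 21.5 in the control array (SD over 8 spots), a difference of -0.21 with spot pairs between -0.25 and -0.17. In both genes every spot pair was lower in the dexamethasone array, by an amount far under 2-fold. Cacna1a, the P/Q-type subunit of transmitter release, had 1051 in the dexamethasone array and 916.4 in the control array (0.12). Cacna1d, an L-type subunit tied to pacemaking, was at -0.11 and dim, with signals of 47.2 in the dexamethasone array and 48.4 in the control array. Cacna1s, the L-type subunit of skeletal muscle, was at 0.38 with signals of 115 and 84.2, dexamethasone array first. Cacna1f, the L-type subunit of the retina, was not well above background on either array.

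**Figure D2:**
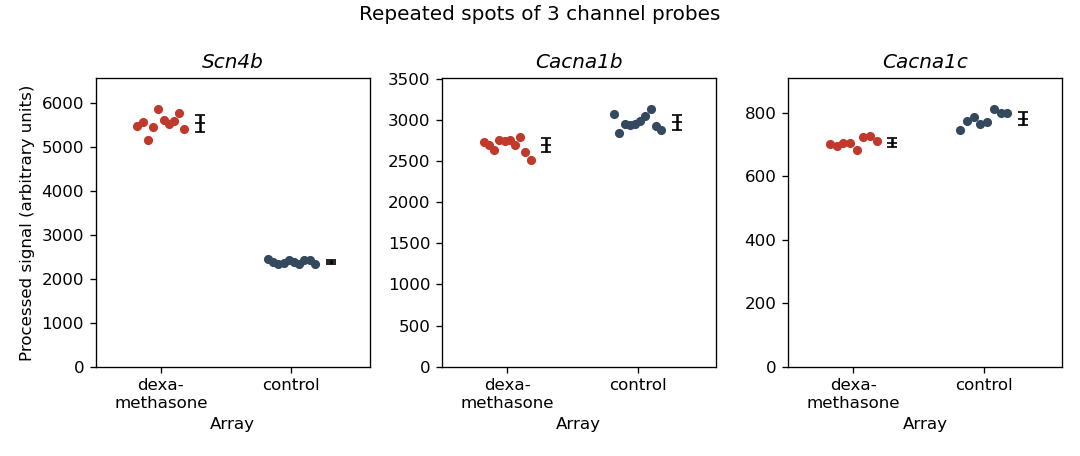
Processed signal (arbitrary units, y axis from 0) of every kept spot of the 3 channel probes that were spotted 10 times, on the dexamethasone array (left) and the control array (right), with mean and SD over spots in black. Spots do not overlap between the arrays for any of the 3 probes. Scn4b has means of 5544 on the dexamethasone array and 2386 on the control array, while Cacna1b and Cacna1c differ by a small amount in the other direction.

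Cacna1e, the R-type subunit, gave opposite answers on its probes. Its brighter probe had 46.1 in the dexamethasone array and 109.6 in the control array, 2.50-fold lower (-1.32). Its dimmer probe, designed on another deposited transcript, had 89.8 in the dexamethasone array and 47.4 in the control array, 1.80-fold higher (0.85). Both are single spots, and in rn4 the probe sequences lie on the same strand, with starts 5.6 kb apart. No single direction can be given for the gene. With normexp background correction the brighter probe was at -0.71, and the mean of both probes was -0.24, so the 2-fold call ended in each case.

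The other Cacna1b probe, designed on a different RefSeq transcript of the gene, had signals of 14.4 in the dexamethasone array and 28.3 in the control array (-1.06), whereas the bright probe was at -0.22. Probes also differed in sign for Cacna1a (0.12 and -0.45), Cacna1c (-0.21 and 0.05) and Cacna1i. In all, 11 genes had 2 measured probes, and 4 of them had probes of opposite sign or more than 1 apart in log2.

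None of the measured alpha2delta or beta subunits, the auxiliary subunits of calcium channels, reached 2-fold. Cacna2d1, an alpha2delta subunit that binds gabapentin, was 1.85-fold higher (0.89), with signals of 7570 in the dexamethasone array and 3882 in the control array. Cacna2d3 was at -0.05, Cacna2d2 was dim and at -0.42, and Cacna2d4, found mainly in the retina, was not well above background on either array. Among the cytoplasmic beta subunits, which carry alpha subunits to the membrane, 3 of 4 were slightly lower. Cacnb3 had signals of 20591 in the dexamethasone array and 25969 in the control array (-0.41), Cacnb2 was at -0.35 and Cacnb4 at -0.25 on its bright and -0.40 on its dimmer probe. Cacnb1 was higher on both probes (0.37 and 0.53).

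**Figure D3:**
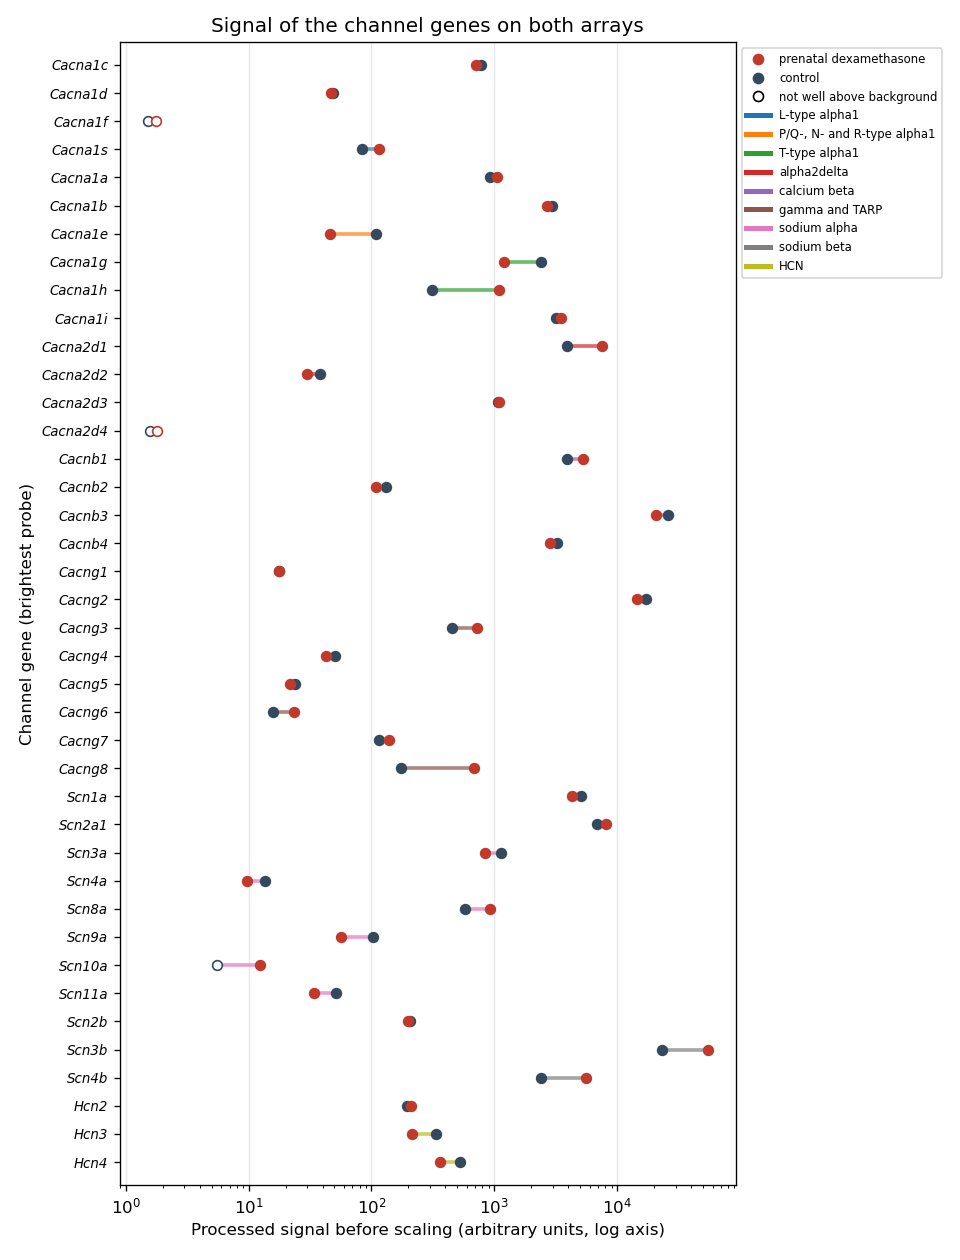
Processed signal before scaling (arbitrary units, log x axis) of the brightest probe of the channel genes reported here (y axis), with the dexamethasone array in red, the control array in dark grey-blue and open circles where a probe was not well above background. Line colours mark subunit classes. The widest gaps are those of Cacng8, Cacna1h and Cacna1e, and signals of different genes are not comparable because they come from different probes.

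In the gamma family, Cacng8 had the largest difference of all channel genes. This TARP is best known from hippocampal AMPA receptors. Its signal was 682.9 in the dexamethasone array and 172.5 in the control array, 3.76-fold higher (1.91). Cacng3, another TARP of forebrain neurons, was at 0.62, with signals of 727.5 in the dexamethasone array and 448.9 in the control array. Cacng2, which encodes stargazin, was at -0.33 with signals of 14363 in the dexamethasone array and 17121 in the control array. The remaining TARPs were Cacng4 (-0.32), Cacng5 (-0.23) and Cacng7 (0.18), the first pair of them dim. Cacng1 and Cacng6, gamma subunits of muscle calcium channels, were dim on both arrays, Cacng1 with 17.7 in the dexamethasone array and 17.6 in the control array and Cacng6 with 23.6 in the dexamethasone array and 15.8 in the control array. Cacng6 was at 0.50 on its brighter probe and 1.30 on the other, but at -0.0045 for the brighter probe with normexp correction.

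On their brightest probes, the neighbours of Cacng8 on chromosome 1 had smaller differences. In rn4 the Cacng8 probe (1.91) lies 17.1 kb from the brighter Cacng6 probe (0.50) and 42.5 kb from the Cacng7 probe (0.18). The other Cacng6 probe was at 1.30, and both Cacng6 probes were dim. The cluster of Cacng1, Cacng4 and Cacng5 on chromosome 10 lay between -0.32 and -0.07 on the brightest probes.

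Sodium channel alpha subunits of the brain stayed within 2-fold. Scn2a1, the alpha subunit of excitatory axons, had signals of 8050 in the dexamethasone array and 6820 in the control array (0.16). Scn1a, the alpha subunit of many inhibitory interneurons, had 4272 in the dexamethasone array and 5057 in the control array (-0.32). Scn8a, the alpha subunit of nodes of Ranvier and axon initial segments, was higher (0.59), with 915.4 in the dexamethasone array and 578.3 in the control array. Scn3a, the alpha subunit that prevails before birth, was 1.42-fold lower (-0.50) with 846 in the dexamethasone array and 1138 in the control array. The brain subunits thus did not shift as a block, with 2 of these 4 higher and 2 lower.

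Among alpha subunits best known from skeletal muscle and sensory neurons, the measured ones given here were below 0. Scn9a, a subunit of sensory neurons that is also made by hypothalamic neurosecretory neurons, was 1.92-fold lower (-0.94), with 56.9 in the dexamethasone array and 103.6 in the control array. With normexp correction Scn9a was at -0.51. Scn11a, of small sensory neurons, was dim and at -0.66, with 34.2 in the dexamethasone array and 51.5 in the control array. Scn4a, of skeletal muscle, was also dim and at -0.57, with 9.66 in the dexamethasone array and 13.6 in the control array. With normexp correction Scn11a was at -0.33 and Scn4a at -0.26, and without background correction they were at -0.30 and -0.15. Scn10a, of sensory neurons, passed the background test only on the dexamethasone array, with a signal of 12.5 there and 5.56 in the control array. Its bound was at least 2.02-fold higher, taking the lowest signal that was well above background in the control array. Its measured difference was 1.09, but 0.03 with normexp correction and 0.07 without background correction. The median of the 8 measured sodium alpha genes was -0.41, with 3 above and 5 below 0. It was -0.27 with normexp correction, -0.22 without background correction and -0.08 for bright genes alone.

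Among sodium channel beta subunits, Scn3b and Scn4b were past 2-fold. Scn3b had a signal of 54604 in the dexamethasone array and 23152 in the control array, 2.24-fold higher (1.16). Scn4b, a subunit tied to resurgent sodium current and abundant in the striatum, averaged 5544 ± 192 in the dexamethasone array and 2386 ± 43.1 in the control array (SD over 10 spots). Its difference was 1.14, and the 10 spot pairs ran from 1.07 to 1.20 with an SD of 0.037, so every pair exceeded 2-fold. Scn2b was at -0.13, with 199.7 in the dexamethasone array and 207.1 in the control array. The Scn2b and Scn4b probes lie 28 kb apart on chromosome 8 in rn4, yet Scn4b alone of the pair passed 2-fold.

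Values are given for 3 of the 4 HCN genes. Hcn4, the subunit of the cardiac pacemaker that is also prominent in the thalamus, was 1.53-fold lower (-0.61), with 362.7 in the dexamethasone array and 526.5 in the control array. Hcn3 was 1.65-fold lower (-0.72), with 214.9 in the dexamethasone array and 336.8 in the control array. Hcn2, a widely expressed subunit, was at 0.03 with 208.3 in the dexamethasone array and 193.8 in the control array.

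**Figure D4:**
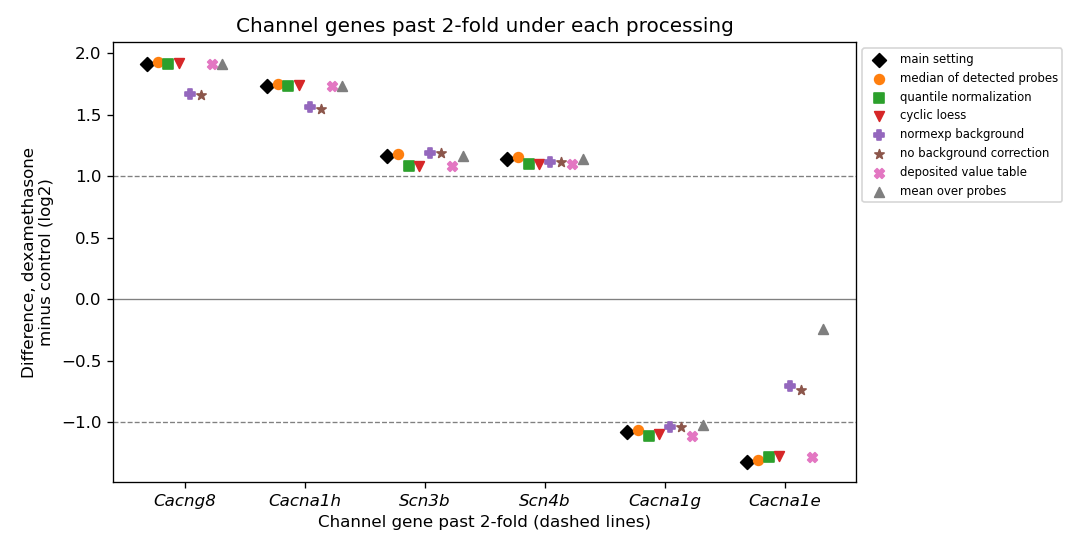
Difference between the arrays (dexamethasone minus control, log2, y axis) of the channel genes past 2-fold that are reported here (x axis) under the main setting (black diamonds) and 7 other ways of scaling, background handling or probe choice. The other genes stay past the dashed 2-fold lines under each setting drawn, while Cacna1e comes to -0.71, -0.74 and -0.24 under 3 of them.

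Proteins that bind, anchor or regulate these channels formed a separate list of 35 genes, of which 30 were measured. Of these, 1 was at least 2-fold higher and 0 lower (background 3.37% and 2.38%), with a median of 0.04. The gene past 2-fold was Stac2, an adaptor of L-type channels, with signals of 346.3 in the dexamethasone array and 152.2 in the control array (1.11). With normexp correction or without background correction no partner gene passed 2-fold. Pex5l, the partner of HCN channels known as TRIP8b, was at 0.53, with 10071 in the dexamethasone array and 6621 in the control array. Cnih2, an AMPA receptor partner alongside TARPs, was at 0.87, and Rimbp2, which ties calcium channels to release sites, at 0.76 on its brightest probe. In all, 17 partner genes were above 0 and 13 below. The lowest were Rims2, a scaffold of release sites, at -0.93 on its brightest and 0.06 on its other probe, and Rem1, a small GTPase that inhibits calcium channels, at -0.92 and dim. Tpcn2, which encodes a lysosomal cation channel, was at -0.45. Anchors of sodium channels at the axon initial segment were at 0.41 (Ank3), 0.31 (Nfasc) and 0.03 (Sptbn4). The 3 measured Nfasc probes ran from 0.0013 to 0.31. Calmodulin genes were at 0.15 (Calm2) and 0.26 (Calm3). Nalcn, which encodes the sodium leak channel, was at -0.18 on its brightest and -0.0041 on its other probe.

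Markers of other brain regions differed between the arrays at the same time. Of 12 measured markers of cortex, hippocampus and striatum, 11 were above 0 and 7 of them past 2-fold upward (background 3.37%). The median was 1.49, with a range of -0.30 to 4.66. Their summed signal was 32311 in the dexamethasone array and 18570 in the control array, but such a sum mixes different probes. Foxp1 alone gave 11194 of it in the dexamethasone array and 13069 in the control array, and was the marker below 0. Of 9 thalamic markers, all were lower in the dexamethasone array, by -1.19 to -0.47, and 3 were past 2-fold downward (background 2.38%). Their median was -0.91, with a summed signal of 88371 in the dexamethasone array and 156209 in the control array. Among the genes listed as thalamic markers Tcf7l2 was at -0.91 and Slc17a6 at -0.87. Whether each listed gene is confined to the thalamus was not analysed here. Among channel genes described above as forebrain, hippocampal or striatal, Cacng8 was at 1.91, Scn4b at 1.14 and Cacng3 at 0.62. Among those described as thalamic, Cacna1g was at -1.08, Hcn4 at -0.61 and Cacna1i at 0.06. Cacna1h, Scn3b and Cacna1e, also past 2-fold, were given no such region. The channel genes and marker lists were chosen with earlier results of these data known, so these counts only describe the lists. The part of these markers in the channel differences was not tested.

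The labelled nucleus was checked by its own products. Of 8 markers of the nucleus and the hypothalamus 7 were measured, with a median of -0.24, 3 above and 4 below 0. This median ran from -1.39 for bright genes alone to -0.00058 without a filter on dim probes. Avp, which encodes vasopressin, was at -1.91, with signals of 970.3 in the dexamethasone array and 3464 in the control array. Oxt, encoding oxytocin, was at -1.38. Crh, encoding corticotropin-releasing hormone, was at 1.39, and Sst, encoding somatostatin, at 1.41 with signals of 21300 in the dexamethasone array and 7602 in the control array. Sim1, the factor that specifies the nucleus, was measured but dim, with 12 in the dexamethasone array and 14.1 in the control array, and Otp, another such factor, passed the background test only on the dexamethasone array. Among the glial and vascular markers, 0 of 7 astrocyte, 0 of 8 oligodendrocyte, 0 of 7 microglial and 0 of 5 endothelial genes passed 2-fold. Their medians were 0.25, 0.25, 0.01 and -0.04, in that order. Of all measured genes 3.37% were past 2-fold upward and 2.38% downward, so a count of 0 in lists this short says little. Choroid plexus genes had a median of 0.33 and the 3 measured pituitary genes one of -0.21, with none past 2-fold. The defining pituitary hormones Gh1 and Prl did not pass the background test on either array. Both measured blood genes, Hbb and Alas2, were higher, Hbb with signals of 75249 in the dexamethasone array and 25248 in the control array and Alas2 at 1.45. Of 7 muscle genes 1, Ckm, was past 2-fold, at -1.69 (background 2.38% downward).

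**Figure D5:**
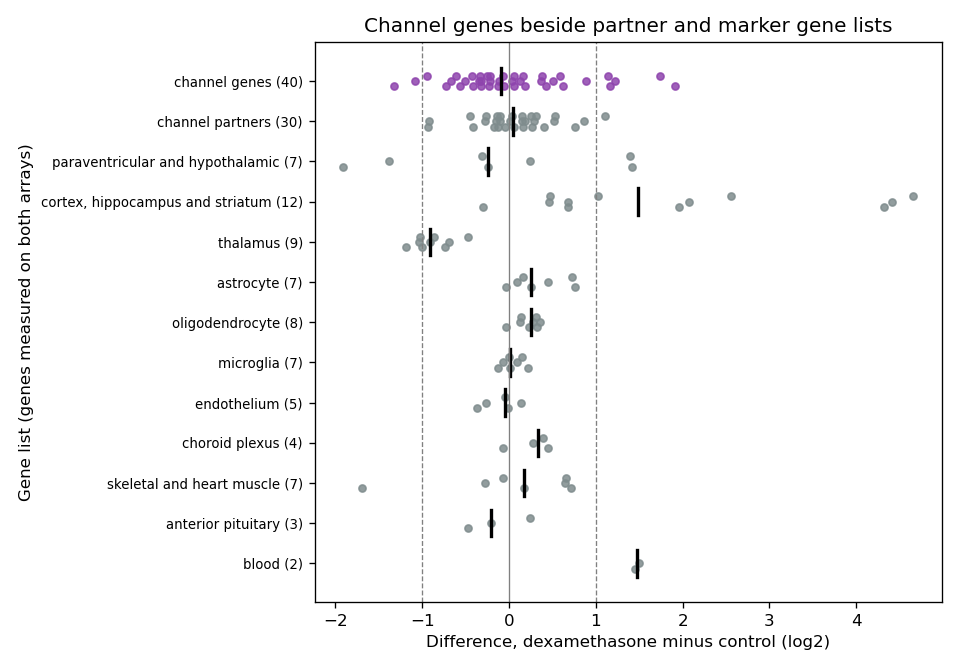
Difference between the arrays (dexamethasone minus control, log2, x axis) of the 40 measured channel genes (purple), the channel partners and each marker list (grey), with the number of measured genes in brackets. Each point is a gene, black bars are medians and dashed lines 2-fold. The markers of cortex, hippocampus and striatum lie to the right (median 1.49) and the thalamic markers to the left (median -0.91), with channel genes spread over both sides.

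The series title names DNA methylation, which was not analysed here. Promoter composition was described only from the RefSeq sequence (GRCr8 assembly, 250 bases before to 50 after each start). Of the 43 channel genes 27 matched a promoter, among them Cacng8, Scn4b and Cacna1e of the genes past 2-fold. The number of CpG dinucleotides in 300 bases had a median of 16 over these promoters, against 7 over all 33469 promoters, and ranged from 2 to 66. Cacng8 had 16, Scn4b 24 and Cacna1e 10. The glucocorticoid receptor half-site, AGAACA on either strand, occurred in 4 of 27 channel promoters (14.8%) and in 20.7% of all promoters. An exact pair, with 2 such half-sites facing each other across 3 bases, occurred in 0 of 27 and in 5 of all promoters. Pairs with a mismatch were not searched for. Of the genes past 2-fold with a promoter, Scn4b held a half-site, given here in capitals within the 30 bases before its start (chr8:54343843-54343872, plus strand).
Scn4b promoter: cccccggagcgctccggagAGAACAggacc
A match of letters is a description of the sequence and not a binding site.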

How the data were processed

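Total RNA was labelled with Cy3 and hybridised to 1-colour rat arrays, per the labels' protocols. The scanner software was Feature Extraction 10.7.1.1, with probe positions in rn4, per the file headers; version 9.5.1.1 stands in the submitters' processing notes. The unit of the deposited signals is intensity, not log-transformed, and the processed intensity is background-subtracted by the scanner software. Precision is limited by the number of arrays, 1 per group. No spot was saturated. Spots marked as outliers (249 in the dexamethasone and 267 in the control array) were left out, log2 intensities were averaged per probe, and the 75th percentile over all probes was subtracted. A probe counted as well above background where the software marked it so in at least 50% of its kept spots. A channel gene is named as in the files. Other genes were named through a RefSeq table of the GRCr8 assembly: 18006 probes matched by accession, 2654 by current and 559 by older symbol, and the other 9148 were left out of the background. All 54 member probes matched. A 2-fold difference is a size rule and not a test. Counts and medians cover all member genes; values are given for members past 2-fold, with disagreeing probes or otherwise measured, except a few genes that are not reported here. The members and lists were chosen with earlier results of these data known. Alternatives used limma 3.58.1 in R 4.3.3 (quantile, cyclic loess, normexp with offset 50), and the gene summary was tested on simulated data.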

Additional observations from a re-analysis of the deposited data

How the results depend on the processing

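The 7 channel genes past 2-fold kept their direction under every alternative with 1 value per gene, but the second probe of Cacna1e, which counts where every probe is used, was at 0.85. Cacng8 (1.66 to 1.93), Cacna1h (1.55 to 1.75), Scn3b and Scn4b (1.08 to 1.19 over both) and Cacna1g (-1.11 to -1.03) stayed past it. Of 40 measured genes, 35 kept their sign under the alternatives with 1 value per gene, among them Cacna1e and Cacna1c, whose second probes have the other sign. The median over channel genes, -0.09, ran from -0.12 to -0.05 elsewhere but was 0.0514 for the 19 bright genes alone. The count of higher genes, 5, was 3 for bright genes alone (2.51% of all bright genes), 8 at 1.5-fold and 2 at 3-fold. It was 6 without a filter on dim probes, adding Scn10a, where 4.95% of all genes were higher. With every probe counted it was also 6, adding the dimmer Cacng6 probe, where 3.21% of all such probes were higher. The count of lower genes, 2, was 1 with normexp, without background correction and for the mean over probes. Of all genes, 0.92%, 0.94% and 2.3% were lower under these settings, in that order. It was also 1 for bright genes alone (0.96% of all bright genes), 6 at 1.5-fold and 0 at 3-fold. With every probe it was 3, adding the dimmer Cacna1b probe, where 2.37% of all such probes were lower. Shares of all genes at 1.5-fold and 3-fold are not given here. With normexp or no background correction Cacna1e alone was lost, at -0.71 and -0.74, and the cause was not tested. Over all genes, normexp called 2.0% higher and 0.92% lower. Of 90 class medians under alternatives, 11 had the other sign. The median of the cortical and striatal markers ran from 0.85 to 1.67 and that of the thalamic markers from -0.99 to -0.89. No paired analysis was possible because each group has 1 array. Low signal limits 8 of the measured channel genes, whose mean signal was below 64.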
